A study of Mus musculus with 7 samples.

Results

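The genes described here are 40 genes of the islet vasculature, which are markers of endothelial cells, the receptors these cells carry and the ligands that act on them. They were taken by name, ignoring case, from the 34082 gene names of the islet RNA-seq table, and all 40 were found. Of these, 35 are genes known from endothelial cells, 4 are ligands known mainly from endocrine or other cells (VEGFA, VEGFB, VEGFC and ANGPT1), and TSPAN7 was kept apart because endocrine cells also make it.

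Islet RNA was sequenced from 7 C57BL/6 mice aged 3 to 4 months by the labels (the methods give the mice of the study an older age), all pregnant at day 15, with 1 library per mouse. In the 4 βPrlR+/− mice, 1 allele of the prolactin receptor gene Prlr was deleted by a tamoxifen-inducible Cre under the Pdx1 promoter, which is active in β-cells, so endothelial cells were not the target. In the 3 Prlr+/− mice, 1 allele was missing from every tissue, endothelial cells included, and these mice carried no Cre and received no tamoxifen. Genotype, Cre and tamoxifen therefore cannot be told apart, and neither the labels nor the methods give a wild type group among the sequenced mice. The study's methods describe the β-cell deletion as heterozygous, whereas a label calls it homozygous, and the wording of the methods is followed here. The sample titles of this group read CkoWt, which no source used here explains, so the genotype of these 4 mice, and with it the meaning of each difference between the groups, rests on the label of the deleted tissue and on the methods. Islets were picked by hand, so a library holds endocrine, vascular and other cells together. The values are TPM, a unit in which each library has the same total, divided by a size factor for each mouse (scaled TPM). TPM corrects for transcript length, so levels of different genes can be compared. The methods give the number of reads only as a range over the samples, and the reads behind a value cannot be read from TPM. No batch is named in the labels, and nothing says whether the mice of a group were littermates.

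A pancreatic islet is threaded by a dense capillary bed whose endothelial cells are fenestrated, with pores closed by a diaphragm. β-cells secrete VEGF-A, which acts on the receptors VEGFR2 (KDR) and VEGFR1 (FLT1) of endothelial cells and keeps this capillary bed in place. Angiopoietins and the receptor TIE2 (TEK), Notch with its ligand DLL4, and the BMP receptors ALK1 (ACVRL1) and endoglin (ENG) set the stability and branching of vessels. The transcription factors ERG, FLI1, SOX17 and SOX18 hold the endothelial gene programme. ERG and FLI1 bind ETS motifs with the core GGAA, and SOX factors bind AACAAT or close relatives of it.

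RefSeq promoter windows (GRCm38.p6, 250 bases before to 50 after a start) were at hand for 23 of the 40 genes, 19 of them endothelial. The strict ETS motif CCGGAAG or CAGGAAG, searched on both strands, was found in a window of 8 of the 19 endothelial genes, while 23.1% of all 27025 genes with a window held it. These 8 were CD34, EGFL7, CALCRL, EMCN, ERG, ROBO4, NOTCH4 and APLN. The SOX motif AACAAT was found in 4 of the 19 and in 12.2% of all genes. ACGTG, the core of the element bound by hypoxia-inducible factors, was in none of the 19 and in 21.8% of all genes, and 1 of the VEGFA windows held it. The windows of KDR, FLT1, FLT4 and TIE1 held none of these 3 motifs. These are counts of letters, not of bound sites, and the build of the authors' transcripts is not given in the sources used here. The 250 bases upstream are printed for the 4 endothelial genes with the highest level among those tested whose upstream stretch held the ETS motif, to show where it lies. Capitals mark the motif, as CAGGAAG on the printed strand or CTTCCTG where it lies on the other strand.
EMCN (chr3:137340828-137341077, plus strand): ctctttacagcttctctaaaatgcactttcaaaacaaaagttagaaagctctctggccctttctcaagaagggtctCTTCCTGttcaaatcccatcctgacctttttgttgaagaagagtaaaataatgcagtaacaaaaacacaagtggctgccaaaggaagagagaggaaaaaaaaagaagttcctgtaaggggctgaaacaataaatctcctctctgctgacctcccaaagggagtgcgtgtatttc
EGFL7 (chr2:26580833-26581082, plus strand): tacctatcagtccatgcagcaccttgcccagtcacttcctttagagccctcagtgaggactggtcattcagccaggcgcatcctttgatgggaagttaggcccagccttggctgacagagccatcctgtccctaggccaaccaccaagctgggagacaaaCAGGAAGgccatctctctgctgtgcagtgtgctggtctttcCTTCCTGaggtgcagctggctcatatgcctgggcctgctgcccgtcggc
CD34 (chr1:194938571-194938820, plus strand): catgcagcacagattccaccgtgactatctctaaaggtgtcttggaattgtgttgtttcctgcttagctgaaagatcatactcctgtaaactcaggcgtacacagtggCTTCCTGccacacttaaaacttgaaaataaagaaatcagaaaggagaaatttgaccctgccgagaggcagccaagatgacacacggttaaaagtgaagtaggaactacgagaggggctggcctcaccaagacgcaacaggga
ROBO4 (chr9:37401722-37401971, plus strand): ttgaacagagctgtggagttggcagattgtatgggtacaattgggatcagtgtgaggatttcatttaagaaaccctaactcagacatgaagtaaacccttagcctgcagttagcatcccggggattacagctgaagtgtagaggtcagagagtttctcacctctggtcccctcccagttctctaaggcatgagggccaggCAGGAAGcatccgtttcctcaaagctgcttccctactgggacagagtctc

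All 40 genes had a value above 0 in every mouse. TSPAN7, a tetraspanin, was the highest at a mean of 162 scaled TPM over the 7 mice, followed by VEGFA at 99.9 and PLVAP at 81.7. PLVAP forms the diaphragms of fenestrated endothelium. Then came VEGFB at 34.5, ESM1 at 31.6, EMCN at 27.8, KDR at 21.7 and ENG at 18.2. Some endothelial genes were scarce. CLDN5, the tight-junction claudin of barrier capillaries, had a mean of 0.172 scaled TPM, and VWF, stored in the granules of larger vessels, had 0.544. The range of TSPAN7 over the 7 mice lay above that of VEGFA, whereas the ranges of most neighbours in this order overlapped. VEGFA (85.2 to 140.3) overlapped PLVAP (65.5 to 93.9), and KDR (17.6 to 26.2) overlapped EMCN (22.4 to 37.2) and ENG (14.8 to 20.9). Within every mouse, however, EMCN lay above KDR and KDR above ENG. PLVAP lay above VEGFA in βPrlR+/− mouse 2. With CLDN5, the genes SOX17, APLN, APLNR and ANGPT1 lay below the mean TPM of 0.5 required for testing, which left 35 genes.

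**Figure D1:**
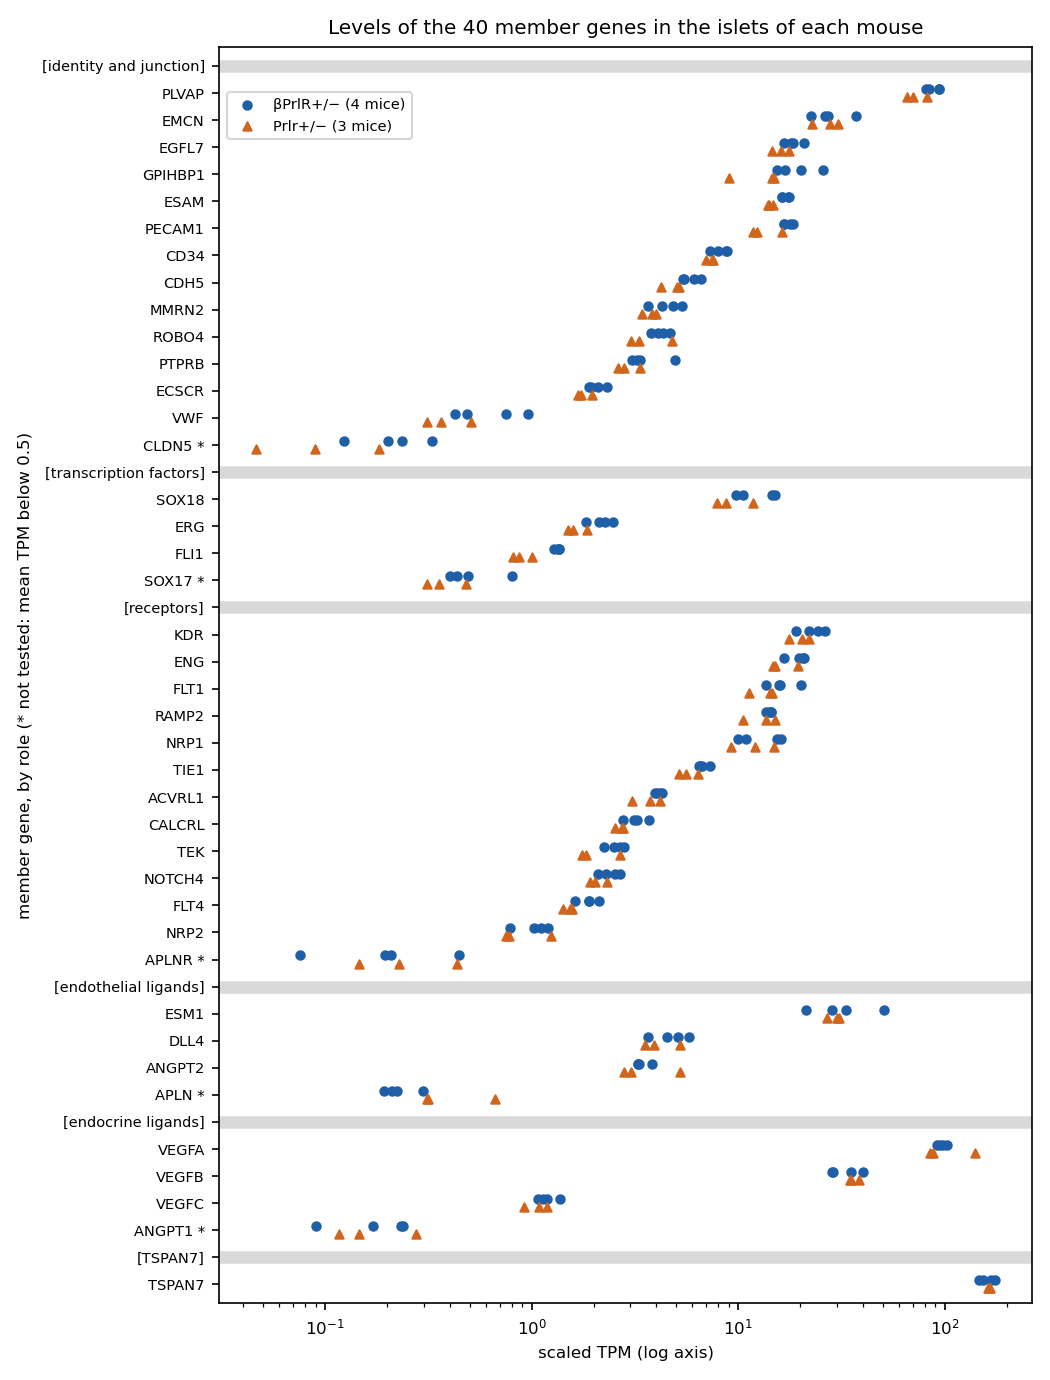
Scaled TPM (log axis) of each of the 40 genes in the 7 mice, grouped by role, with circles for βPrlR+/− and triangles for Prlr+/− mice. Levels range from 0.172 for CLDN5 to 162 for TSPAN7 as means of the 7 mice, and the triangles of most endothelial genes sit to the left of or among the circles.

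PRLR, the deleted gene, was 55.7, 38.4, 47.3 and 38.8 scaled TPM among the 4 βPrlR+/− mice, compared with 36.1, 51.1 and 35.1 among the 3 Prlr+/− mice. Each group carries a deletion and the values sum over all transcripts, so the level is no check of the labels (log2 fold change −0.15 ± 0.17, SE, adjusted p = 0.9999, limma).

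The comparison of the groups asks whether islet vascular genes differ when Prlr is reduced in all tissues and not in β-cells alone. Of the 35 genes tested, 31 had a lower and 4 a higher mean log2 value in the Prlr+/− mice, and none passed an adjusted p of 0.05 (limma, Benjamini-Hochberg over all 14840 genes tested). The smallest adjusted p was 0.607, for ESAM and FLI1, and 0.0674% of all genes tested passed. Unadjusted p-values under 0.05 were found for 9 of the 35, all with the Prlr+/− mice lower, compared with 2.94% of all genes in that direction. No single gene named below therefore passes the test over all genes. The 31 endothelial genes tested lay lower in 30 cases and higher in 1 (ANGPT2). The median of their log2 fold changes was −0.20, with a range of −0.57 to 0.047. Over all genes tested, 48.3% lay below 0, and the median was 0.0042. In 7 of the 31 the ranges of the groups were apart, in each with the Prlr+/− mice lower, which was so for 3.11% of all genes. These 31 genes were measured in the same islet libraries of the same 7 mice and are not independent of each other. In bulk islet RNA, fewer endothelial cells and less RNA per endothelial cell cannot be told apart.

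**Figure D2:**
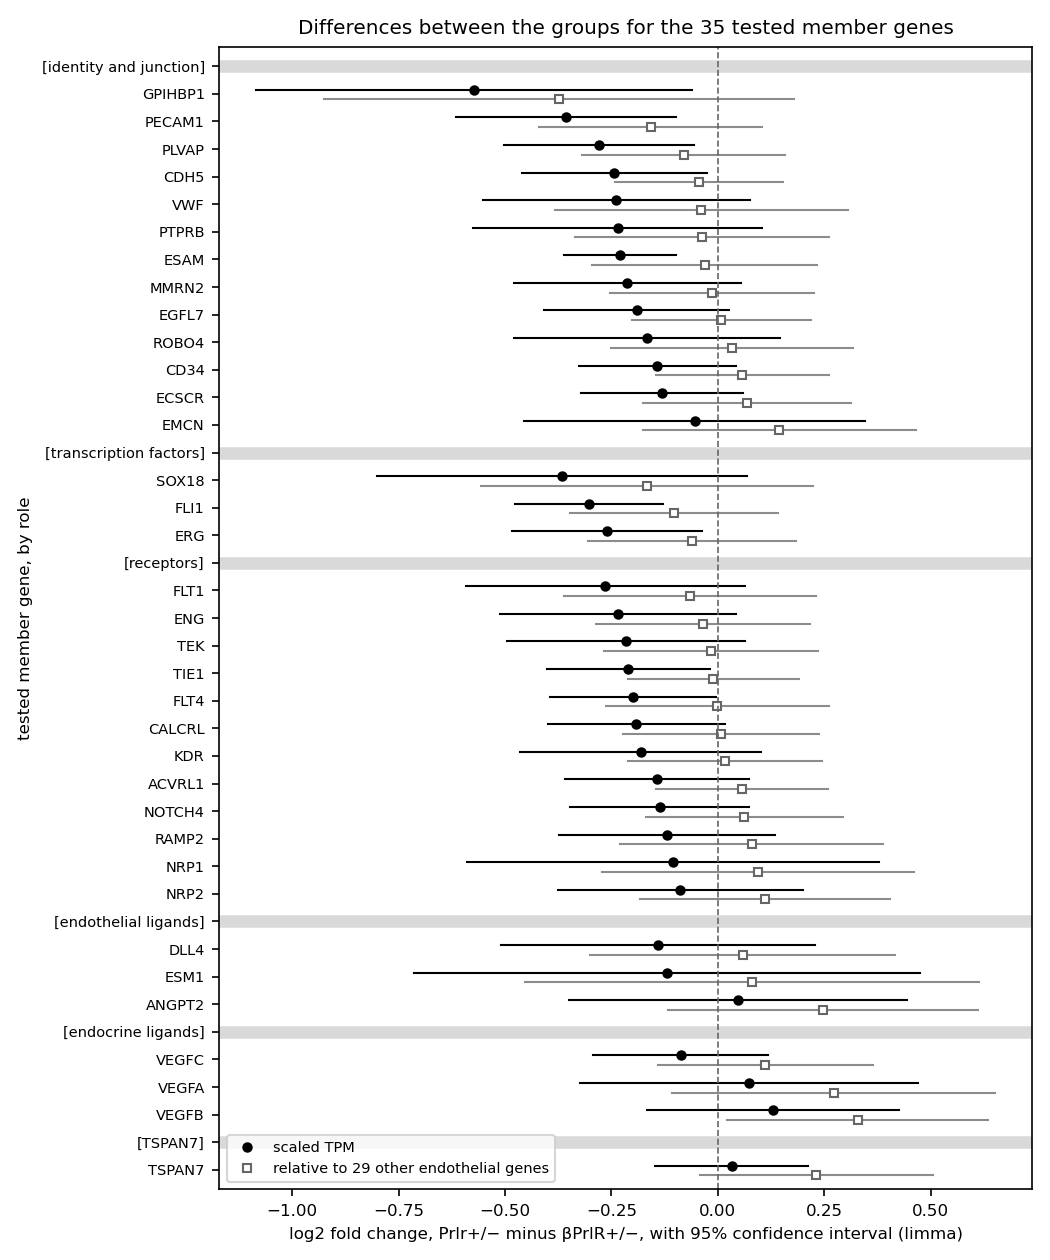
Log2 fold change (Prlr+/− minus βPrlR+/−, limma) of the 35 genes tested with its 95% confidence interval, by role. Black circles are scaled TPM, with 31 genes left of 0, and open squares are the same after subtraction of the mean of 29 other endothelial genes in each mouse, where the 31 endothelial genes lie on both sides of 0. VEGFA, VEGFB, TSPAN7 and ANGPT2 lie to the right in scaled TPM. Their values in TPM as deposited, which are below 0, are not drawn.

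Among the genes of endothelial identity and junctions, all 13 tested had a lower mean in the Prlr+/− mice, and the median log2 fold change was −0.23. PLVAP was 93.6, 93.9, 84.4 and 81.4 scaled TPM among the 4 βPrlR+/− mice, compared with 65.5, 70.4 and 82.4 among the 3 Prlr+/− mice. Only Prlr+/− mouse 3 reached the range of the other group, and the log2 fold change was −0.28 ± 0.096 (SE, adjusted p = 0.962, limma). EMCN, the sialomucin endomucin of capillaries and veins, was 37.2, 26.5, 27.4 and 22.4 scaled TPM among the 4 βPrlR+/− mice, compared with 22.7, 30.4 and 27.8 among the 3 Prlr+/− mice. These values were mixed between the groups, with βPrlR+/− mouse 1 alone above the rest. EGFL7, a secreted protein of endothelial matrix, was 20.9, 18.5, 17.98 and 16.7 against 14.5, 16.1 and 17.6 scaled TPM, and the groups overlapped at their edges.

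PECAM1 (CD31), an adhesion molecule of endothelial junctions, was 18.4, 17.9, 16.6 and 16.6 scaled TPM among the 4 βPrlR+/− mice, compared with 12.3, 11.8 and 16.3 among the 3 Prlr+/− mice. The groups did not overlap, although Prlr+/− mouse 3 lay just below the lowest βPrlR+/− mouse. The Prlr+/− mean was 77.5% of the βPrlR+/− mean, with a log2 fold change of −0.36 ± 0.11 (SE, unadjusted p = 0.0134, adjusted p = 0.901, limma). ESAM, another adhesion molecule of endothelial junctions, was 16.3, 17.6, 16.4 and 17.3 against 14.8, 14.0 and 14.0 scaled TPM. Here both groups were narrow and apart, at 16.9 ± 0.671 (SD, n = 4) and 14.3 ± 0.466 (SD, n = 3), with a log2 fold change of −0.23 ± 0.056 (SE, adjusted p = 0.607, limma). CDH5 (VE-cadherin), the cadherin of endothelial adherens junctions, was 6.60, 5.38, 6.09 and 5.48 against 4.24, 5.07 and 5.15 scaled TPM. Its groups came close but did not overlap, and Prlr+/− mouse 1 was the lowest. GPIHBP1, which carries lipoprotein lipase to the capillary lumen, was 15.4, 25.8, 16.9 and 20.2 against 14.7, 9.02 and 15.0 scaled TPM. Its log2 fold change of −0.57 ± 0.22 (SE, adjusted p = 0.9999, limma) had the largest size among the 35 genes on the log2(scaled TPM + 1) scale, and was −0.35 without Prlr+/− mouse 2, the lowest. Its groups were apart by less than their own spread. The other 6 genes tested in this role, CD34, MMRN2, ROBO4, PTPRB, ECSCR and VWF, had overlapping groups and log2 fold changes of −0.24 to −0.13. VWF, the scarcest of them, had a Prlr+/− mean of 60.2% of the βPrlR+/− mean, lower than the 65.9% of GPIHBP1, and its log2 fold change of −0.24 was −0.57 with a pseudocount of 0.1. It passed the filter through the βPrlR+/− mice, with group means of 0.656 and, in the Prlr+/− mice, 0.395 scaled TPM. Without βPrlR+/− mouse 3 it was not tested.

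All 3 transcription factors tested were lower in the Prlr+/− mice. FLI1 was 1.35, 1.29, 1.34 and 1.35 scaled TPM among the 4 βPrlR+/− mice, compared with 0.809, 0.872 and 1.002 among the 3 Prlr+/− mice. The βPrlR+/− mice were nearly equal and every Prlr+/− mouse lay below them, with a log2 fold change of −0.30 ± 0.074 (SE, unadjusted p = 0.00429, adjusted p = 0.607, limma). The pseudocount of 1 understates changes at this level. The Prlr+/− mean of FLI1 was 67.1% of the βPrlR+/− mean, and its log2 fold change was −0.53 with a pseudocount of 0.1. ERG was 2.48, 2.11, 2.26 and 1.83 against 1.58, 1.502 and 1.86 scaled TPM, where Prlr+/− mouse 3 passed the lowest βPrlR+/− mouse. SOX18 was 15.2, 14.5, 9.74 and 10.6 against 7.88, 8.69 and 11.8 scaled TPM. Its log2 fold change of −0.37 ± 0.19 (SE, adjusted p = 0.9999, limma) was the second in size of the 35 on the log2(scaled TPM + 1) scale, but was smaller than those of VWF and FLI1 with a pseudocount of 0.1 (−0.40 for SOX18), and βPrlR+/− mice 3 and 4 lay within the Prlr+/− range. SOX17 was not tested, at 0.4 to 0.799 scaled TPM in the βPrlR+/− mice and 0.311 to 0.481 in the Prlr+/− mice.

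**Figure D3:**
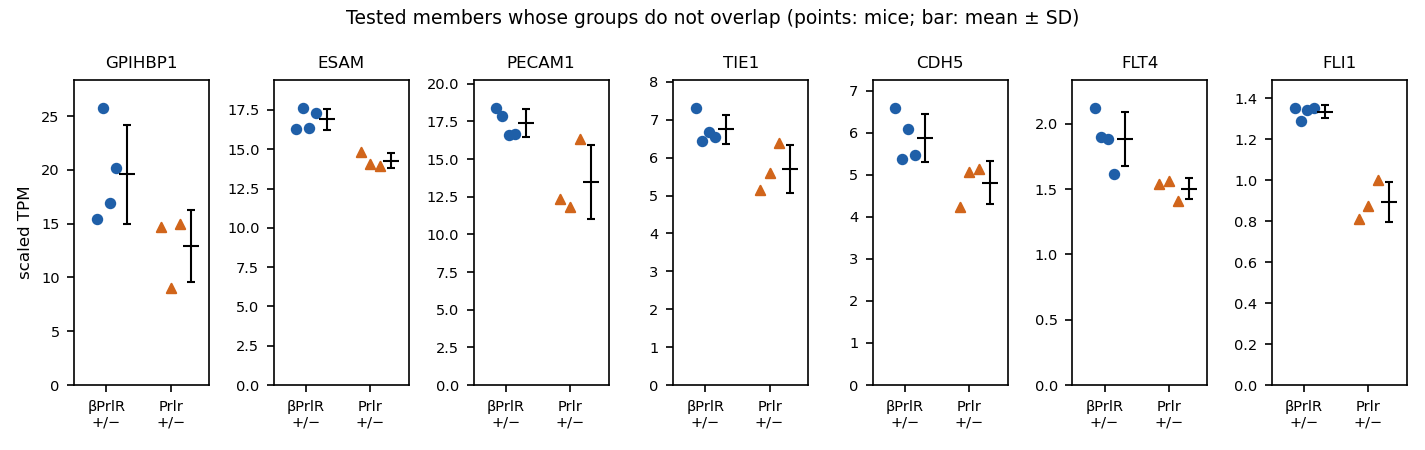
Scaled TPM of the 7 tested genes whose groups did not overlap, with 1 point per mouse (circles βPrlR+/−, triangles Prlr+/−) and the mean ± SD (n = 4 and n = 3) beside each group, on axes from 0. The gap between the groups is widest against their spread for ESAM and FLI1 and narrow for PECAM1, TIE1, GPIHBP1, CDH5 and FLT4.

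Among the receptors, all 12 tested were lower in the Prlr+/− mice, and the median log2 fold change was −0.19 with a range of −0.26 to −0.088. KDR, the main signalling receptor for VEGF-A, was 24.3, 22.1, 26.2 and 19.0 scaled TPM among the 4 βPrlR+/− mice, compared with 17.6, 20.4 and 22.1 among the 3 Prlr+/− mice. The groups overlapped, and the log2 fold change was −0.18 with a 95% confidence interval of −0.47 to 0.10, and −0.094 without Prlr+/− mouse 1. FLT1, which binds VEGF-A tightly and signals weakly, was 13.6, 15.8, 20.2 and 15.9 against 11.3, 14.7 and 14.2 scaled TPM. Its highest value was in βPrlR+/− mouse 3 and its lowest in Prlr+/− mouse 1, and the rest overlapped. ENG, a co-receptor for BMP9, was 20.9, 19.8, 20.7 and 16.7 against 15.1, 14.8 and 19.6 scaled TPM, with Prlr+/− mouse 3 among the βPrlR+/− mice. FLT4 (VEGFR3), the receptor for VEGF-C, was 2.12, 1.90, 1.89 and 1.62 against 1.54, 1.56 and 1.41 scaled TPM, and TIE1 was 7.32, 6.45, 6.68 and 6.54 against 5.15, 5.59 and 6.39. TIE1 is an orphan receptor that modulates TIE2. FLT4 and TIE1 did not overlap between the groups, with log2 fold changes of −0.20 ± 0.083 and −0.21 ± 0.082 (SE). The other 7 tested receptors overlapped, namely TEK, ACVRL1, NOTCH4, NRP1, NRP2 and the adrenomedullin receptor subunits CALCRL and RAMP2. APLNR, the apelin receptor, was not tested, at 0.0753 to 0.445 scaled TPM over the 7 mice.

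The exact two-sided permutation test, with 35 ways to divide the mice, can give no p below 0.0286. Of the 35 genes tested, 4 (PECAM1, ESAM, FLI1 and TIE1) reached an exact permutation p of 0.0286 with the Prlr+/− mice lower, as did 1.89% of all genes tested. APLN, a ligand of sprouting endothelial cells and not tested by limma, reached p = 0.0286 in the exact permutation test with the Prlr+/− mice higher, as did 0.762% of the 6692 genes that were likewise below the filter and above 0 in every mouse. It was 0.299, 0.222, 0.194 and 0.211 scaled TPM among the 4 βPrlR+/− mice, compared with 0.315, 0.662 and 0.310 among the 3 Prlr+/− mice. All values were below 1 TPM, and the gap between the groups was small beside the lead of Prlr+/− mouse 2.

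The other ligands known from endothelial cells did not separate the groups. ESM1 (endocan), a secreted proteoglycan of tip cells, was 50.6, 33.2, 28.4 and 21.2 scaled TPM among the 4 βPrlR+/− mice, compared with 30.0, 30.8 and 26.8 among the 3 Prlr+/− mice. The βPrlR+/− values surrounded the Prlr+/− values on both sides. DLL4, the Notch ligand of tip cells and arteries, was 5.80, 5.12, 3.64 and 4.50 against 3.55, 5.23 and 3.898 scaled TPM, with both groups spread over the same range. ANGPT2, which loosens vessels by competing at TIE2, was 3.29, 3.83, 3.31 and 3.29 against 3.02, 2.81 and 5.23 scaled TPM, with Prlr+/− mouse 3 alone above 4. Its log2 fold change of 0.047 was −0.18 without that mouse and −0.070 in TPM as deposited.

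The ligands of endocrine or other cells were examined apart. VEGFA was 94.7, 91.4, 102 and 97.7 scaled TPM among the 4 βPrlR+/− mice, compared with 87.4, 140.3 and 85.2 among the 3 Prlr+/− mice. The βPrlR+/− mice were close together, whereas Prlr+/− mouse 2 stood above and the other Prlr+/− mice below all of them. The log2 fold change was 0.073 with a 95% confidence interval of −0.32 to 0.47, −0.16 without Prlr+/− mouse 2, and −0.072 in TPM as deposited. VEGFB, a ligand of FLT1, was 40.3, 35.3, 28.9 and 28.5 against 34.7, 38.5 and 35.2 scaled TPM, where the Prlr+/− mice lay inside the βPrlR+/− range, with a log2 fold change of 0.13 that was −0.012 in TPM as deposited, 0.062 without βPrlR+/− mouse 4 and 0.22 without βPrlR+/− mouse 1. VEGFC, the ligand of FLT4, was 1.37, 1.19, 1.07 and 1.14 against 0.917, 1.19 and 1.08 scaled TPM, with Prlr+/− mouse 1 the lowest and the rest mixed. ANGPT1, the activating ligand of TIE2 known from mural cells, was not tested, at 0.0899 to 0.276 scaled TPM over the 7 mice. TSPAN7 was 175, 167, 147 and 154 against 166, 162 and 164 scaled TPM, the Prlr+/− mice again inside the βPrlR+/− range, which gave a log2 fold change of 0.032 in scaled TPM and −0.11 in TPM as deposited.

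VEGFA is spliced into forms that differ in exons for binding heparan sulfate, and forms that lack these exons diffuse more freely. The transcript table lists VEGFA in 6 sets with values of their own, some sets holding transcripts given exactly equal values in every mouse. In the largest set (A, 3 transcripts), 2 were matched to a coding model of 1104 bases in GENCODE and 1 to a model of 624 bases with a further exon. The same 624-base model was also matched to a transcript of set E, and the 3 transcripts of set A had equal values in every mouse. Whether set A mixes splice forms was therefore not settled. Set A took 47.0% to 53.9% of VEGFA in the βPrlR+/− mice and 47.5% to 51.2% in the Prlr+/− mice. Set B (2 transcripts, coding lengths of 438 and 972 bases, without either alternative exon) took 21.2% to 25.5% and 18.6% to 28.1%. Set E (2 transcripts, 1 of them matched to the longest coding model of 1176 bases) took 1.38% to 3.41% over the 7 mice. Prlr+/− mouse 2 was the highest of the 7 mice in 5 of the 6 sets. It was 66.7 scaled TPM in set A compared with 41.4 to 51.0 in the other mice. In sets C, D and F, each 1 transcript without a matched coding model, it was 27.2 compared with 9.46 to 13.7, 13.9 compared with 6.87 to 10.4, and 1.63 compared with 0.161 to 0.780. In set E it was 4.78 compared with 1.20 to 3.35. Set B was the exception, at 26.1 in that mouse, level with the 26.1 of βPrlR+/− mouse 3. The exact permutation p-values for sets A and B were 0.886 and 0.343.

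FLT1 was split over a transcript with the full coding length of 3999 bases and a second transcript without a matched coding model. The full-length transcript was 10.4, 7.77, 12.4 and 8.79 scaled TPM among the 4 βPrlR+/− mice, compared with 8.94, 8.65 and 7.62 among the 3 Prlr+/− mice. It made up 49.3% to 76.5% of FLT1 in the βPrlR+/− mice and 53.6% to 79.0% in the Prlr+/− mice, and these ranges overlapped (exact permutation p = 0.686). Mouse 1 of each group held the least of the second transcript, at 3.10 and 2.21 scaled TPM compared with 6.01 to 7.99 in the other mice. VEGFB was split over transcripts with coding lengths of 564 and 621 bases, which encode its retained and its diffusible form by the use of alternative splice sites. The longer one made up 35.8% to 50.4% in the βPrlR+/− mice and 39.8% to 58.6% in the Prlr+/− mice (exact permutation p = 0.371). Of the 127 transcripts of the 40 genes, 67 were tested and none was called, while 0.021% of all 28553 transcripts tested were. Some VEGFA transcripts repeat the same values, which leaves 63 with values of their own. Of these 63, 51 were lower in the Prlr+/− mice and 12 higher, and 49.8% of all transcripts tested were lower. The 6 with an unadjusted p under 0.05 were all lower, compared with 2.19% of all transcripts in that direction.

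**Figure D4:**
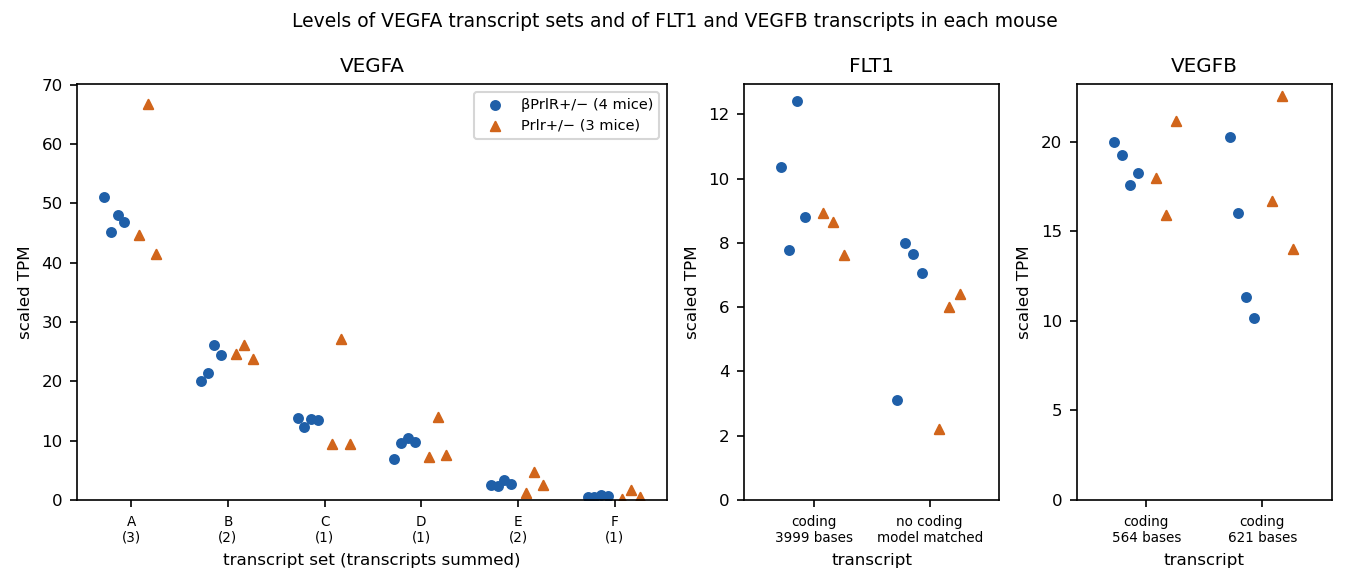
Scaled TPM in each mouse (circles βPrlR+/−, triangles Prlr+/−) of the 6 VEGFA transcript sets A to F, with the number of transcripts summed in brackets, and of the FLT1 and VEGFB transcripts. Prlr+/− mouse 2 is the highest mouse in VEGFA sets A (66.7), C (27.2), D (13.9), E (4.78) and F (1.63) and not in set B.

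The lower values of the endothelial genes were not spread evenly over the mice. Of the 31 endothelial genes tested, 14 were highest in βPrlR+/− mouse 1 and 9 in βPrlR+/− mouse 3, and 20 were lowest in Prlr+/− mouse 1 and 7 in Prlr+/− mouse 2. As the median over these genes of the deviation from the mean of the 7 mice, the βPrlR+/− mice were at 0.17, 0.042, 0.097 and −0.035 on the log2 scale and the Prlr+/− mice at −0.24, −0.10 and −0.035. Prlr+/− mouse 3 and βPrlR+/− mouse 4 were thus level. Without Prlr+/− mouse 1 the median log2 fold change was −0.15, with 29 of 32 genes lower, and without βPrlR+/− mouse 1 it was −0.16, with 28 of 31 lower.

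Endothelial genes outside the list were lower in the Prlr+/− mice as well. Of 32 further endothelial genes (among them ADGRL4, NOSTRIN and SLC9A3R2), 29 were tested and all 29 were lower, and the median log2 fold change was −0.18. None was called, and 6 had an unadjusted p under 0.05, all lower, compared with 2.94% of all genes. Of the 29, the groups did not overlap in 5, namely NOSTRIN, KANK3, RAMP3, ICAM1 and MECOM, with the Prlr+/− mice lower as in 3.11% of all genes. When the mean of these 29 genes was subtracted in each mouse, the 31 endothelial genes were split into 15 higher and 16 lower, with a median relative log2 fold change of −0.0011. On this scale 8.43% of all genes lay below 0. None of the 31 was called, and none had an unadjusted p under 0.05, while 0.027% of all genes were called and 19.8% had an unadjusted p under 0.05 in either direction. Relative to these genes, GPIHBP1 was at −0.37 with a 95% confidence interval of −0.93 to 0.18, PECAM1 at −0.16 and ANGPT2 at 0.25. VEGFB was at 0.33 with a 95% confidence interval of 0.021 to 0.64, but this scale raised the median of all genes to 0.20.

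Mural cells (pericytes and smooth muscle) wrap these vessels, and all 14 of their markers tested were lower in the Prlr+/− mice. The median log2 fold change was −0.16. None was called, and 1 of the 14 had an unadjusted p under 0.05 with the Prlr+/− mice lower, as did 2.94% of all genes. ANPEP and RGS5, the highest, were at −0.30 ± 0.18 and −0.24 ± 0.15 (SE). HIGD1B alone did not overlap between the groups, with the Prlr+/− mice lower as in 3.11% of all genes. Conversely, all 8 β-cell markers were higher in the Prlr+/− mice, and the median log2 fold change was 0.34, while 7 of 8 were higher in TPM as deposited, with a median of 0.20. None was called, and 1 had an unadjusted p under 0.05 with the Prlr+/− mice higher, as did 234 of all 14840 genes. INS and Ins1 made up 46.1% to 53.2% of TPM in the βPrlR+/− mice and 53.98% to 58.9% in the Prlr+/− mice. The part of these markers and shares in the lower endothelial values was not tested. Without the size factors, the median over all genes was a log2 fold change of −0.12 and 88.1% of all genes lay below 0, the 31 endothelial genes were lower in all 31 cases with a median of −0.32, and 18 did not overlap, compared with 8.42% of all genes.

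**Figure D5:**
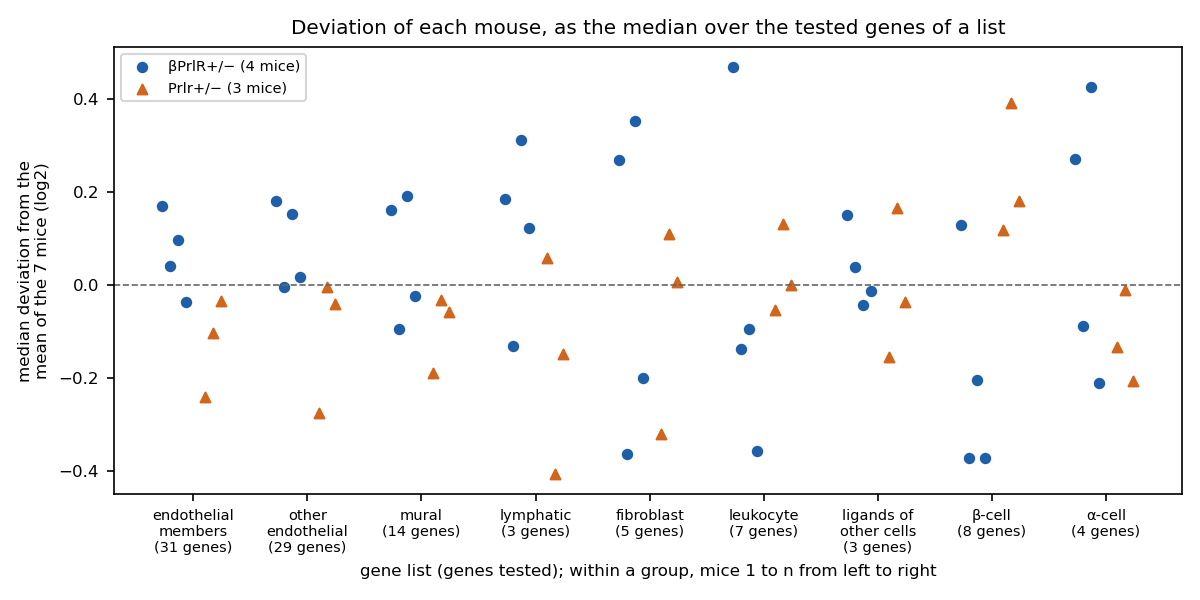
Deviation of each mouse from the mean of the 7 mice (log2 scaled TPM), as the median over the tested genes of each list, with circles for βPrlR+/− and triangles for Prlr+/− mice. Prlr+/− mouse 1 is lowest for the endothelial genes described here (−0.24), for other endothelial genes (−0.28) and for mural genes (−0.19), and the 3 Prlr+/− mice are above 0 for β-cell genes, as is βPrlR+/− mouse 1 (0.13), which lies above Prlr+/− mouse 1 (0.12).

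The wider set of angiogenic genes was assembled from the VEGF, Notch, BMP, adrenomedullin, semaphorin, ephrin and hypoxia pathways, from other growth factors (PDGF, FGF and HGF), basement membrane and thrombospondin genes, KLF transcription factors and junction proteins, and holds none of the 40 genes. Of its 61 genes 50 were tested, 40 were lower and 10 higher in the Prlr+/− mice, and the median log2 fold change was −0.10. None was called, and 9 had an unadjusted p under 0.05, all lower, compared with 2.94% of all genes in that direction. In TPM as deposited, where 88.1% of all genes lay below 0, 49 of the 50 were lower and 1 higher, with a median of −0.21. CALR and HIF1A, the pair with the highest level, had log2 fold changes of 0.098 ± 0.12 and −0.054 ± 0.074 (SE), and CALR is a chaperone of all cells. Among the targets of BMP signalling, ID1 was 10.5, 13.0, 12.0 and 11.0 scaled TPM among the 4 βPrlR+/− mice, compared with 8.23, 6.84 and 9.16 among the 3 Prlr+/− mice. The groups were apart, with a log2 fold change of −0.48 ± 0.11 (SE, adjusted p = 0.543, limma), and ID3 lay apart in the same direction at −0.30 ± 0.088 (SE). The flow-induced transcription factor KLF2 was 5.96, 5.96, 6.96 and 6.24 against 3.30, 4.14 and 4.75 scaled TPM, at −0.53 ± 0.11 (SE, adjusted p = 0.434, limma). The junction protein JAM2 was 7.61, 7.38, 8.31 and 7.59 against 5.74, 4.90 and 6.22, at −0.40 ± 0.084 (SE, adjusted p = 0.448, limma). KLF2 and JAM2 are on a list of genes that the study drew from these mice, so their direction is not independent evidence. The Notch target HEYL and RAMP3, a receptor subunit related to RAMP2, also did not overlap, with the Prlr+/− mice lower in both. In all, 6 of the 50 did not overlap (ID1, ID3, KLF2, JAM2, HEYL and RAMP3), each with the Prlr+/− mice lower as in 3.11% of all genes. Other genes of the BMP and Notch pathways, SMAD6, SMAD7, HEY1, HEY2, HES1 and NRARP, had overlapping groups, with log2 fold changes of −0.31 to −0.045. RAMP3 is also among the further endothelial genes above and is counted in both lists. ADM (adrenomedullin), too low to be tested, was 0.291 to 0.439 scaled TPM in the βPrlR+/− mice and 0.192 to 0.220 in the Prlr+/− mice.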

How the data were processed

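Per the study's methods, poly(A) RNA of hand-picked islets was sequenced from stranded libraries and assigned to mouse RefSeq transcripts with kallisto (0.42.4 in the submitters' processing notes). The methods describe culturing isolated islets overnight, and whether this preceded RNA extraction is not given in the sources used here. The deposited values are called FPKM, but the total of each mouse is 1000000, and the deposited values were therefore taken as TPM, for 34082 genes and 107384 transcripts. A median-ratio size factor was applied to each mouse. Genes whose TPM averaged 0.5 or more were fitted on log2(scaled TPM + 1), a scale that understates changes of low genes, with limma 3.58.1 in R 4.3.3 (variance trend, Benjamini-Hochberg over all genes, threshold 0.05). Fold changes are Prlr+/− minus βPrlR+/−. P-values measure the spread between these mice. Another fit subtracted the mean of 29 other endothelial genes in each mouse, and the fit was repeated on transcripts. Levels were compared over mice with exact two-sided permutation tests over the 35 splits of the mice (numpy 2.4.6). Transcripts were matched to GENCODE coding models, and promoter windows to RefSeq (GRCm38.p6). The genes, roles and lists were chosen with earlier results of these data known. By a rule, values per mouse are given for the 3 genes of highest mean in each role, those whose groups do not overlap and the 3 with the largest changes. In other lists the rule names genes that do not overlap or are the 2 highest, without asking for values per mouse. Not all such genes are named, and the other genes named there, and those given per mouse (ID1, KLF2 and JAM2), were chosen after their values were seen. The alternatives were a pseudocount of 0.1, unscaled TPM, scaling by the upper quartile, no filter beyond 0, a filter at a mean of 2, a robust fit, no variance trend, identity genes as the reference and leaving out each mouse.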

Additional observations from a re-analysis of the deposited data

Results flagged for a closer look

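For 2 of the 40 genes, 1 of the 4 βPrlR+/− mice lay far from the other 3. PTPRB, a phosphatase that restrains TIE2, was 4.96 scaled TPM in βPrlR+/− mouse 3 compared with 3.06 to 3.35 in the others, and its gap to the next mouse was 0.845 of the group's range. ANGPT2 was 3.83 scaled TPM in βPrlR+/− mouse 2 compared with 3.29 to 3.31 in the others, with a gap of 0.963 of the range. Chance alone marks about 1 in 20 such groups. Neither gene was called in any fit. Without the mouse that stood apart, the log2 fold change of PTPRB moved from −0.24 to −0.11 and that of ANGPT2 from 0.047 to 0.090.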

How the results depend on the processing

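None of the 35 genes passed the threshold under any alternative run, and the smallest adjusted p was 0.266 (PECAM1, without Prlr+/− mouse 3). Endothelial genes with an unadjusted p under 0.05 (limma) numbered 9 in the main fit and 20 in TPM as deposited. With 1 mouse left out they numbered from 3 (without Prlr+/− mouse 1) to 13 (without Prlr+/− mouse 3). Of 482 single values under alternatives, 470 kept their sign. These include the robust fit, the fit without variance trend and the other filters, which leave each log2 fold change as it was and cannot turn a sign. No gene was called relative to the other endothelial genes and no transcript of the 40 genes in any alternative. In TPM as deposited the median log2 fold change was −0.32 for the endothelial genes, −0.072 for the ligands of other cells and −0.21 for the wider angiogenic list, and the sign turned for ANGPT2 (−0.070), VEGFA (−0.072), VEGFB (−0.012) and TSPAN7 (−0.11). With a pseudocount of 0.1 the log2 fold change grew by over 1.5 times for VWF (−0.57), FLI1 (−0.53), NRP2 (−0.17) and VEGFC (−0.15). The count of all genes called was 10, and was 18 with a pseudocount of 0.1 and 4 with all genes above 0. With 1 mouse left out it was 2 to 13, being 2 without βPrlR+/− mouse 4 and 5 without βPrlR+/− mouse 1, Prlr+/− mouse 1 or Prlr+/− mouse 2. The median then ranged from −0.24 to −0.15 for the endothelial genes, −0.13 to 0.16 for the ligands of other cells and −0.17 to −0.072 for the wider list. The sign of 7 genes turned with a mouse left out, over −0.16 to 0.080 for EMCN, −0.31 to 0.10 for ESM1, −0.26 to 0.060 for NRP1, −0.22 to 0.017 for RAMP2, −0.18 to 0.18 for ANGPT2, −0.16 to 0.20 for VEGFA and −0.013 to 0.076 for TSPAN7. The cause was not tested. No paired analysis was possible because the labels give no number shared between the groups. With 1 mouse left out, the log2 fold change turned or moved by over 1.5 times in at least 1 fit for 21 of the 35 genes. The methods give the reads per sample only as a range and TPM does not keep the reads behind a value, so counting error was not computed for genes below 1 TPM.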

Other observations

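Other cell types of the islets were read from marker lists, in which no gene was called. Of the lymphatic markers 3 of 3 tested were lower in the Prlr+/− mice (median −0.20 on the log2 scale), and the defining markers PDPN and MMRN1 were below 0.19 scaled TPM in every mouse. Of the 3 tested, RELN passed the filter only through its βPrlR+/− mean of 0.732 scaled TPM, as its Prlr+/− mean was 0.358. PROX1 and LYVE1 had means of 12.0 and 5.53 scaled TPM over the 7 mice, far above PDPN and MMRN1. Whether lymphatic cells made them was not tested, so the count is no measure of lymphatic vessels. Of the fibroblast markers 4 of 5 were lower (median −0.10), led in level by DCN. Of the leukocyte markers 6 of 7 were higher in mean log2 value (median 0.060), the exception being C1QB (−0.086), and 5 of 7 were lower in TPM as deposited. The highest of them, the macrophage gene C1QA and the B-cell gene CD79A, had log2 fold changes of 0.54 ± 0.36 and 0.25 ± 0.22 (SE), while the macrophage genes ADGRE1, CD68 and CSF1R were at 0.0085, 0.060 and 0.092. By mean scaled TPM ADGRE1 was lower, at 1.13 in the Prlr+/− mice compared with 1.16 in the βPrlR+/− mice. The groups overlapped in each of these leukocyte genes. CD79A had a mean of 17.1 scaled TPM over the 7 mice, compared with 0.674 for the general leukocyte gene PTPRC. Whether CD79A was read from B cells here was not tested.

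The 4 α-cell markers were all lower in the Prlr+/− mice (median −0.20), as were both δ-cell markers (median −0.23), 3 of 4 Schwann cell markers (median −0.30) and 2 of 3 duct markers (median −0.081). Of the duct markers KRT7 was at −0.085 and MUC1 at −0.081, whereas KRT19 was higher, at 0.23. KRT7 had a mean of 226 scaled TPM over the 7 mice, compared with 1.22 for KRT19. SOX9 and CFTR, at 0.175 and 0.0532, were not tested, so the duct count is no measure of duct RNA. S100B of Schwann cells did not overlap between the groups, at 0.565 to 0.987 scaled TPM in the βPrlR+/− mice and 0.269 to 0.454 in the Prlr+/− mice. S100B and CDH19 had Prlr+/− means of 0.372 and 0.354 scaled TPM, and passed the filter through βPrlR+/− means of 0.718 and 0.882. The Schwann cell count and median thus rest in part on genes tested because of the group where they were high. The only erythroid marker found, ALAS2, was lower (−0.11). The summed level of the 7 acinar markers, enzymes of the exocrine pancreas, ran from 1864 to 16500 scaled TPM in the βPrlR+/− mice and from 5080 to 14090 in the Prlr+/− mice. In mean log2 value 6 of the 7 were higher in the Prlr+/− mice (median 0.091), and 4 of 7 were lower in TPM as deposited. By mean scaled TPM each of the 7 was lower in the Prlr+/− mice, as for PRSS2 at 2274 compared with 2693. βPrlR+/− mice 1 and 3, which were highest in most endothelial genes, were also highest in the summed acinar level. The next, Prlr+/− mouse 2 (14090), was low in endothelial genes (−0.10 as the median deviation on the log2 scale). The lowest in the sum, βPrlR+/− mouse 2, was at 0.042 in that deviation. The part of acinar RNA in the endothelial values was not tested.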
